A study of Mus musculus with 48 samples.

Results

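The 10 genes described here, Th, Slc6a3, Slc18a2, Ddc, Nr4a2, En1, En2, Ret, Slc10a4 and Sox6, are used to recognise dopamine neurons of the mouse midbrain. They were chosen by symbol from the 56893 genes of the count table, and each of the 10 was found once and passed the filter on low counts that kept 17352 genes. One hemisphere from each of 48 adult mice gave 1 messenger RNA library, and the 12 groups of 4 mice combine sex, genotype and feeding state. Control mice were Grin1fl/fl (1 female control given food throughout was Grin1fl/+), and knockout mice were Aldh1a1+/P2A-CreERT2::Grin1fl/fl, so all mice but that 1 carried 2 floxed copies of Grin1, which encodes the obligatory subunit of NMDA glutamate receptors. Mice were 5.5 to 8.5 months old. They were either not food restricted (called unrestricted below) or food restricted for 2 nights. The latter were collected after those 2 nights (restricted) or given 3 days of free access to food after them (refed). The labels give 48 hours of single housing for unrestricted mice and no such time for restricted or refed mice. The Cre recombinase in this design is expressed from the Aldh1a1 locus, so only cells that use that gene can lose Grin1, and a whole hemisphere holds many other cells. CreERT2 acts only after tamoxifen, and whether and when it was given is not given in the sources used here.

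Midbrain dopamine neurons sit in the substantia nigra and ventral tegmental area and send axons to the striatum and cortex. They make dopamine from tyrosine in consecutive steps catalysed by tyrosine hydroxylase (Th) and aromatic amino acid decarboxylase (Ddc), load it into vesicles with the vesicular monoamine transporter (Slc18a2) and take it back up with the dopamine transporter (Slc6a3). Nr4a2, En1 and En2 are transcription factors that form and maintain these neurons, Ret is the signalling receptor for GDNF family ligands, Slc10a4 is a vesicle membrane protein of monoamine and cholinergic neurons, and Sox6 is a transcription factor of the ventral nigral subtype. Most of these genes are also used elsewhere: Th in olfactory bulb interneurons and noradrenergic cells, Ddc and Slc18a2 in all monoamine neurons, En1 in the neighbouring hindbrain, En2 in the cerebellum, Nr4a2 in deep cortex and claustrum, and Sox6 in cortical interneurons and oligodendrocyte precursors. Slc6a3 is the gene among the 10 that is most restricted to dopamine neurons.

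The sequence before the transcription start is shown for Th, the member called with the olfactory bulb list, and for Ddc, Slc18a2 and En1, which moved together across libraries. Promoters of all 10 genes were taken at the start of the canonical transcript in GENCODE M39 on GRCm39. Each line gives the 250 bases before the start, 5′ to 3′ on the gene's strand, with matches to the 4 motifs searched in capitals.
Th promoter, chr7:142453752-142454001, minus strand: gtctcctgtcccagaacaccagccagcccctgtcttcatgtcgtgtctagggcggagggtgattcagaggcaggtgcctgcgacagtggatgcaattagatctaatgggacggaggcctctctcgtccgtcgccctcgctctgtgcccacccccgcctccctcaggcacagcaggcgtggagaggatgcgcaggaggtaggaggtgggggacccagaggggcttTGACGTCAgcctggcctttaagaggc
Ddc promoter, chr11:11848151-11848400, minus strand: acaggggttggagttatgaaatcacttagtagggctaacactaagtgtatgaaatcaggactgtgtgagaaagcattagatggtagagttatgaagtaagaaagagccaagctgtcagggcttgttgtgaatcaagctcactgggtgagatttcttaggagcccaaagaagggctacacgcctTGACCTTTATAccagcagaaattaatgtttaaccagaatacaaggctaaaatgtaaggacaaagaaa
Slc18a2 promoter, chr19:59248988-59249237, plus strand: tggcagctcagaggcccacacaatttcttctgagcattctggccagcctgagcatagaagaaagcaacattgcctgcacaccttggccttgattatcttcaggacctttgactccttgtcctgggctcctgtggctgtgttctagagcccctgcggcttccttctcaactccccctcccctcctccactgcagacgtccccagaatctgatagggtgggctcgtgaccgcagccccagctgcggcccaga
En1 promoter, chr1:120529858-120530107, plus strand: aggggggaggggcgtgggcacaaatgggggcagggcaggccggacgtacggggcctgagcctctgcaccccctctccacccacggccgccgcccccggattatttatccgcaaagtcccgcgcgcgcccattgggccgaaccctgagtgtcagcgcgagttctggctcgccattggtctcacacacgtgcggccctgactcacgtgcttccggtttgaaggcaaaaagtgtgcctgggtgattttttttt
The motifs, each searched on both strands from 250 bases before to 50 after the start, were the NR4A monomer element AAAGGTCA, the cAMP response element TGACGTCA, the TATA box TATAAA and the homeodomain core TAATTA. The capitals in the Th promoter are the cAMP response element, which begins at base -26. In the Ddc promoter they are the NR4A element (from -67) and an overlapping TATA box (from -62), both read on the opposite strand. The promoters of the other 8 genes, Slc18a2 and En1 among them, held none of the 4 motifs. In the whole set of 21770 promoters, 1.36% held the NR4A element, 2.44% the cAMP response element, 13.2% the TATA box and 5.51% the homeodomain core. Such a match describes the letters and does not show that a factor binds there.

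Library totals ran from 7574827 to 16185373 counts, with a median of 10515486. Levels are given as CPM, the counts of a gene per 1000000 counts of its library, after scaling of library sizes by the trimmed mean of M-values (TMM). Midbrain tissue is a small part of a hemisphere, and the dopamine genes were rare in the libraries. The transcription factor Pitx3, which marks these neurons, had between 0 and 5 counts in a library, Foxa2 had 0 to 6 and Foxa1 had 0 to 14, so these 3 defining factors were too low to test. In bulk RNA, fewer cells of a type and less RNA per cell cannot be told apart.

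One library stood apart in several members. Male control refed replicate 1 had the highest En1 and En2 of the 48 libraries, at 5.15 and 49.8 CPM, and Slc6a3 near its lowest, at 6.40. Against its group mean, its scores were 0.72 higher for the cerebellum list and 0.94 higher for the hindbrain list, and lower by 1.23 for striatal projection neurons and by 2.33 for the hypothalamus, on the log2 scale. Without it 9 of the 45 pairs of members described below were called in place of 14, and 45 of the 150 relations with marker lists in place of 40.

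Per kilobase of the canonical transcript (GENCODE M39), Nr4a2 had the highest level of the 10 genes, 7.30 ± 1.07 CPM per kilobase (SD, n = 48), followed by En2 with 6.79 ± 1.67 and Ddc with 5.40 ± 1.40. Ret stood at 4.37 ± 0.596, and Slc6a3 (3.20 ± 0.831), Slc18a2 (3.14 ± 0.692) and Slc10a4 (2.96 ± 0.588) were close together. The lowest were Th with 2.35 ± 0.532, Sox6 with 1.94 ± 0.257 and En1 with 1.03 ± 0.310. Neighbours in this order mostly overlapped: Slc6a3 was above Slc18a2 in 27 of 48 libraries and Nr4a2 above En2 in 32, whereas Ret was above Slc6a3 in 45 and Sox6 above En1 in 48. Slc6a3, Slc18a2 and Th lay below Nr4a2 and En2, which cortex and cerebellum also use. The order rests on 1 annotated transcript length per gene. That length was 4.842 kilobases for Th and 3.466 for Slc6a3, whose means before division were 11.4 and 11.09 CPM.

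The synthesis and transport genes varied widely from mouse to mouse. Th (chr7:142443466-142484865, minus strand of GRCm39) had a lowest value of 7.24 CPM, a median of 10.9 and a highest of 18.3, from 71 to 282 counts a library. Slc6a3 (chr13:73684866-73726801, plus strand) ranged from 6.26 to 20.7 CPM with a median of 11.5. Ddc (chr11:11762602-11848150, minus strand) ranged from 10.9 to 35.8 CPM with a median of 17.5, and Slc18a2 (chr19:59249238-59284695, plus strand) from 6.97 to 18.7 with a median of 13.4. Each of these 4 genes thus differed by more than 2.5-fold between its lowest and highest library. For each the range of 1 genotype overlapped that of the other, as it did for all genes tested.

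Among the transcription factors, Nr4a2 (chr2:56996842-57014331, minus strand) ranged from 23.1 to 46.2 CPM with a median of 34.4, and Sox6 (chr7:115070106-115638860, minus strand) from 13 to 20.4 with a median of 17.1. En2 (chr5:28370689-28377195, plus strand) ranged from 13.2 to 49.8 CPM with a median of 23.3. En1 (chr1:120530108-120535721, plus strand) was the rarest member, with 16 to 62 counts a library and 1.43 to 5.15 CPM. The receptor Ret (chr6:118128706-118174769, minus strand) ranged from 15.1 to 31.4 CPM with a median of 25.4, and Slc10a4 (chr5:73164226-73170298, plus strand) from 3.45 to 9.18 with a median of 6.09. In the annotation, the coding gene Pdzd8 overlaps Slc18a2 and 1110004F10Rik overlaps Sox6, each on the opposite strand, and the strand setting of the counting is not given in the sources used here.

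Variation between mice of 1 group beyond counting error (the biological coefficient of variation fitted by edgeR) was 22.8% for Slc6a3, 22.2% for En2, 21.7% for Slc18a2, 21.5% for En1, 20.0% for Th and 18.1% for Ddc. It was 13.6% for Slc10a4, 13.2% for Ret, 12.7% for Nr4a2 and 8.13% for Sox6. The median over all genes tested was 10%. Compared with genes of like level (within 0.25 on the log2 CPM scale), En2 was at the 99th percentile of this measure, Slc18a2 at the 97.9th, Slc6a3 at the 97.4th, Th at the 96.6th and Ddc at the 96.5th, while Sox6 was at the 38.4th.

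**Figure D1:**
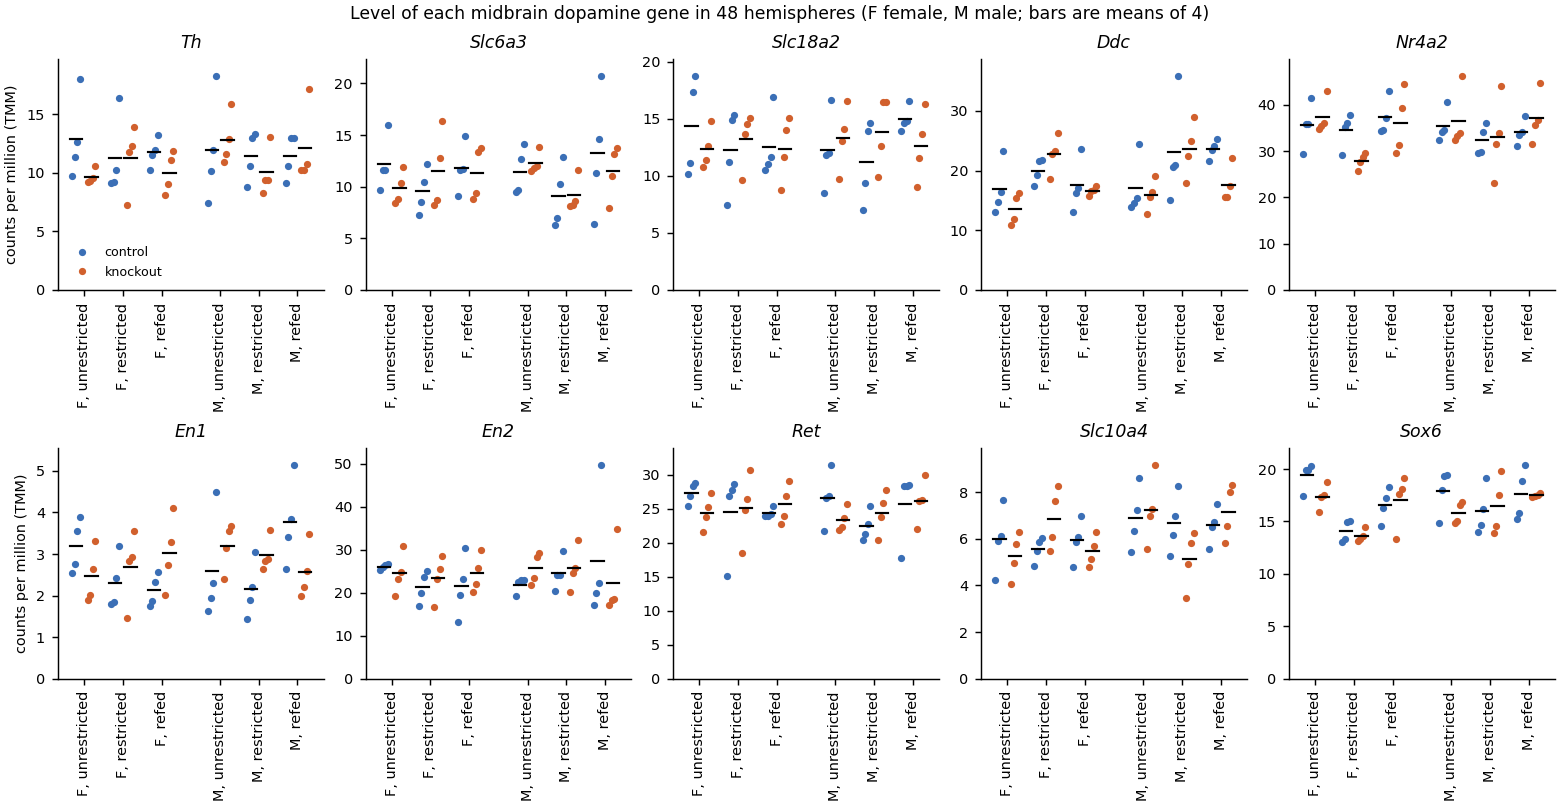
Level of each of the 10 genes in every library, in CPM on a linear axis that starts at 0, by sex and feeding state, with controls in blue, knockouts in orange and a bar at each mean of 4. Points of the same group spread widely for Th, Slc6a3, Slc18a2 and En1, and 1 male control refed library reaches 49.8 for En2.

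Knockout and control hemispheres did not differ past the threshold in any of the 10 genes. Nor was a difference of the targeted gene detected in whole hemispheres: controls averaged 351 ± 49.3 CPM of Grin1 (SD, n = 24) and knockouts 356 ± 29.4 (log2 fold change 0.02, SE 0.04, edgeR's adjusted p = 1). Aldh1a1, which carries the Cre insertion in the knockouts and marks ventral nigral dopamine neurons, averaged 190 ± 27.3 CPM in controls and 101 ± 16.7 in knockouts, a log2 fold change of -0.92 (SE 0.05, edgeR's adjusted p = 1.42e-16). Over all 6 combinations of sex and feeding state, 0 of the 10 genes were called between genotypes (edgeR's quasi-likelihood test, Benjamini-Hochberg adjusted p below 0.05), beside 0.00576% of all genes tested, and 0 of the 10 had an unadjusted p below 0.05.

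Th averaged 11.8 ± 2.76 CPM in the 24 control libraries and 11 ± 2.37 in the 24 knockout libraries, with a log2 fold change of -0.11 and a 95% interval from -0.29 to 0.07. For Slc6a3 the means were 11.3 ± 3.34 and 10.9 ± 2.40 (interval -0.23 to 0.16), and for Slc18a2 12.9 ± 3.24 and 13 ± 2.48 (interval -0.18 to 0.20). Ddc averaged 19.7 ± 5.25 CPM in controls and 18.4 ± 4.57 in knockouts (interval -0.27 to 0.04). The ranges of the genotypes overlapped for all 10 genes, and 0% of all genes tested were without overlap. The interval was widest for En1, from -0.12 to 0.33, and narrowest for Sox6, from -0.14 to 0.03, and changes within these bounds could not be told from none.

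Within single combinations the genotype comparison also called 0 of the 10 genes each time. The share of all genes called was 0.00576% in females, males, refed females, unrestricted males and restricted males, 0.0115% in unrestricted females, 0.386% in restricted females and 0.225% in refed males. Unadjusted p-values below 0.05 were found for 1 member in restricted females (Nr4a2, log2 fold change -0.31, SE 0.14, edgeR's adjusted p = 0.334) and for 2 in refed males (Ddc, log2 fold change -0.41, SE 0.19, edgeR's adjusted p = 0.639, and En1, -0.55, SE 0.27, adjusted p = 0.654). Beside these, 12.5% of all genes tested had an unadjusted edgeR p below 0.05 in restricted females and 7.58% in refed males. The tests of whether the genotype difference depended on sex, on feeding state or on both called 0 of the 10 genes each, and 0% of all genes. The smallest unadjusted p among them was that of En1 for the dependence on both sex and state, where edgeR's adjusted p = 0.524.

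Sex made no called difference either. Between males and females 0 of the 10 genes were called, beside 0.357% of all genes. An unadjusted edgeR p below 0.05 was found for 2 of the 10, beside 18% of all genes, so this share is near the background. Slc10a4 averaged 6.62 ± 1.32 CPM in 24 males and 5.85 ± 1.04 in 24 females (log2 fold change 0.18, SE 0.07, edgeR's adjusted p = 0.195), and Ddc 20.2 ± 5.49 and 17.9 ± 4.07 (log2 fold change 0.17, SE 0.08, edgeR's adjusted p = 0.260). The ranges of the sexes overlapped for all 10 genes, and only 0.0461% of all genes tested were without overlap.

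Food restriction changed 2 members in opposite directions, the decarboxylase Ddc upwards and the transcription factor Sox6 downwards. In 16 unrestricted libraries Ddc ranged from 10.9 to 24.5 CPM with a median of 15.5, in 16 restricted libraries from 15.1 to 35.8 with a median of 21.7, and in 16 refed libraries from 13.1 to 25.3 with a median of 17.3. Restricted mice were therefore shifted upwards as a group, with overlap at the edges. The mean rose from 15.9 ± 3.69 to 22.4 ± 5 CPM (SD, n = 16 each), a log2 fold change of 0.49 (SE 0.10, edgeR's adjusted p = 0.000295). Restricted against unrestricted mice of both sexes gave 2 called members of 10, beside 15.2% of all genes, so the share of members is near the background.

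The rise of Ddc was of the same size in both sexes. Female means were 15.3 ± 3.82 CPM unrestricted, 21.4 ± 2.88 restricted and 17.1 ± 2.97 refed (SD, n = 8 each). The restricted females, at 17.5 to 26.3 CPM, overlapped the unrestricted ones only through 1 control at 23.3, since the other 7 unrestricted females lay at 16.5 or below (log2 fold change 0.49, SE 0.14, edgeR's adjusted p = 0.0273). Male means were 16.5 ± 3.70, 23.4 ± 6.57 and 20.7 ± 3.91 CPM, with 1 restricted control at 35.8 and another at 15.1 (log2 fold change 0.49, SE 0.14, edgeR's adjusted p = 0.0173). The call in females did not survive the removal of control restricted replicate 2, control unrestricted replicate 1, 2 or 3, knockout restricted replicate 1, or knockout unrestricted replicate 2 or 4 (largest edgeR adjusted p 0.0750). The call in males did not survive the removal of control restricted, knockout restricted or knockout unrestricted replicate 3 (largest edgeR adjusted p 0.0868), nor a fit to only the groups compared (edgeR's adjusted p = 0.0797). Over both sexes Ddc was called with each of the 48 libraries removed in turn, with log2 fold changes from 0.42 to 0.54.

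After 3 days of free feeding Ddc lay between the other states. Refed mice were lower than restricted mice by 0.25 on the log2 scale (SE 0.10, edgeR's adjusted p = 0.0773) and higher than unrestricted mice by 0.24 (SE 0.10, adjusted p = 0.289), and neither difference passed the threshold. The fall on refeeding was called with no filter on low counts (edgeR's adjusted p = 0.0411). It was also called without female control refed replicate 4 (edgeR's adjusted p = 0.0383), male control restricted replicate 2 (0.0296), male knockout refed replicate 3 (0.0475) or male knockout restricted replicate 4 (0.0458). In females it was called with only the groups compared (edgeR's adjusted p = 0.04). With the serotonergic marker score of each library added to the fit, the restricted against unrestricted change of Ddc was 0.47 (edgeR's adjusted p = 6.53e-07) and the refed against restricted change was -0.29, with an adjusted p of 0.0013. That alternative was added after the data had been seen. Of the 4 serotonergic marker genes tested 0 were called in either contrast, and the median log2 fold change of the list was 0.08 on restriction and 0.05 on refeeding.

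Sox6 moved the other way, and in females the fall passed the test. The 8 unrestricted females ranged from 15.9 to 20.3 CPM (median 18.1), the 8 restricted females from 13 to 15 (median 13.5) and the 8 refed females from 13.4 to 19.1 (median 17.5). Every restricted female was thus below every unrestricted female, and Sox6 was the 1 member of 10 without overlap in this comparison, beside 1.16% of all genes tested. The female log2 fold change was -0.41 on restriction (SE 0.08, edgeR's adjusted p = 0.000416) and 0.28 on refeeding (SE 0.08, edgeR's adjusted p = 0.0191). The refeeding call was lost without any 1 of 3 females: control refed replicate 3, control restricted replicate 4 or knockout refed replicate 3 (largest adjusted p 0.0544).

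Male Sox6 overlapped between states, at 14.8 to 19.4 CPM unrestricted, 13.9 to 19.8 restricted and 15.2 to 20.4 refed, and its log2 fold change on restriction was -0.06 (SE 0.08, edgeR's adjusted p = 0.711). The test of whether the feeding changes differ between sexes gave Sox6 an unadjusted p of 0.0106 and an edgeR adjusted p of 0.661, so a difference between the sexes was not called. That test called 0 of the 10 genes and 0% of all genes. Over both sexes Sox6 fell by 0.24 on restriction (log2, SE 0.05, edgeR's adjusted p = 0.00159) and rose by 0.20 on refeeding (SE 0.05, adjusted p = 0.00799). Both calls held for each library left out in turn. The score of the oligodendrocyte precursor list, other cells that use Sox6, had an r of 0.31 with Sox6 within groups (adjusted permutation p = 0.150). Of its 5 genes 2, Neu4 and Pdgfra, rose on restriction, beside 15.2% of all genes called in that contrast. On refeeding Pdgfra was lower and C1ql1 was higher, the latter in the direction of Sox6. The part of these cells in the Sox6 result was not tested.

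**Figure D2:**
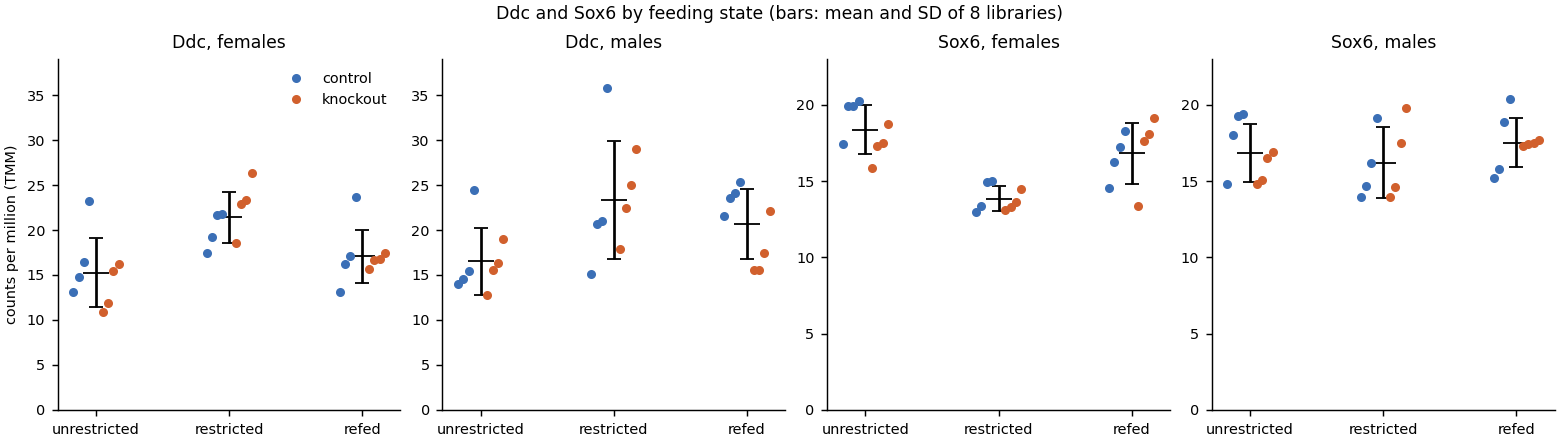
Ddc (left pair) and Sox6 (right pair) in CPM, by sex and feeding state, with 1 point per library and the mean and SD of 8 libraries in black. Restricted females are above most unrestricted females for Ddc and below all of them for Sox6.

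The other comparisons of feeding states called few members. Restricted against unrestricted females gave Ddc and Sox6, 2 of 10 beside 6.27% of all genes, and males gave Ddc, 1 of 10 beside 8.28%. Refed against restricted mice gave Sox6 over both sexes, 1 of 10 beside 15.2%, and in females, 1 of 10 beside 6.1%, and 0 of 10 in males beside 8.33%. Refed against unrestricted mice gave 0 of 10 over both sexes beside 0.738% of all genes, 0 of 10 in females beside 0.0403% and 0 of 10 in males beside 0.167%. Of the 10 genes 1, Ddc, had an unadjusted edgeR p below 0.05 in that last contrast over both sexes, beside 13% of all genes.

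Some members came near the threshold. Nr4a2 averaged 36.2 ± 4.42 CPM in unrestricted, 32 ± 5.20 in restricted and 36.2 ± 4.74 in refed mice, with a log2 fold change of -0.18 on restriction (SE 0.07, edgeR's adjusted p = 0.0664) and 0.18 on refeeding (SE 0.07, adjusted p = 0.0718). On restriction Nr4a2 was called with no filter on low counts (edgeR's adjusted p = 0.0444) and with the serotonergic, olfactory bulb, cerebellum or cortex score as a covariate (adjusted p from 0.0322 to 0.0498). It was also called without female control unrestricted replicate 4 (0.0342 as edgeR's adjusted p), male control restricted replicate 4 (0.0446) or male knockout restricted replicate 4 (0.0107). On refeeding it was called with the serotonergic score (edgeR's adjusted p = 0.00925) and without female knockout refed replicate 1 (0.0416), male knockout refed replicate 3 (0.0499) or male knockout restricted replicate 4 (0.0144). Slc6a3 averaged 11.5 ± 2.06, 9.84 ± 2.72 and 12 ± 3.43 CPM, with 0.29 on refeeding (SE 0.12, edgeR's adjusted p = 0.112). Its male means were 11.9 ± 1.72 unrestricted, 9.13 ± 2.27 restricted and 12.4 ± 4.39 refed (SD, n = 8), and the refed males spread from 6.40 to 20.7. Without male control refed replicate 1, the library at 6.40, the refed against restricted difference of Slc6a3 was called in males (log2 fold change 0.55, edgeR's adjusted p = 0.0282) and over both sexes (0.35, adjusted p = 0.0319). With limma voom it was called in males (0.65, limma's adjusted p = 0.0131) and over both sexes (0.37, adjusted p = 0.0242). Th was called on refeeding over both sexes with the olfactory bulb score as a covariate (log2 fold change 0.22, edgeR's adjusted p = 0.0385). That alternative was added after the data had been seen.

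Over the 10 genes the median log2 fold change on restriction was -0.10, with 9 of 10 negative, and on refeeding against restriction it was 0.07, with 9 of 10 positive. These 2 contrasts share the restricted libraries. The median signed change of all genes was 0.00 in both contrasts. The median absolute log2 fold change on restriction was 0.147 for the members and 0.0808 for all genes tested. It was 0.13 and 0.0871 for refed against restricted mice, but 0.0231 and 0.0623 for refed against unrestricted mice. These medians were not matched for spread between mice, which for most members was above the median of all genes.

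**Figure D3:**
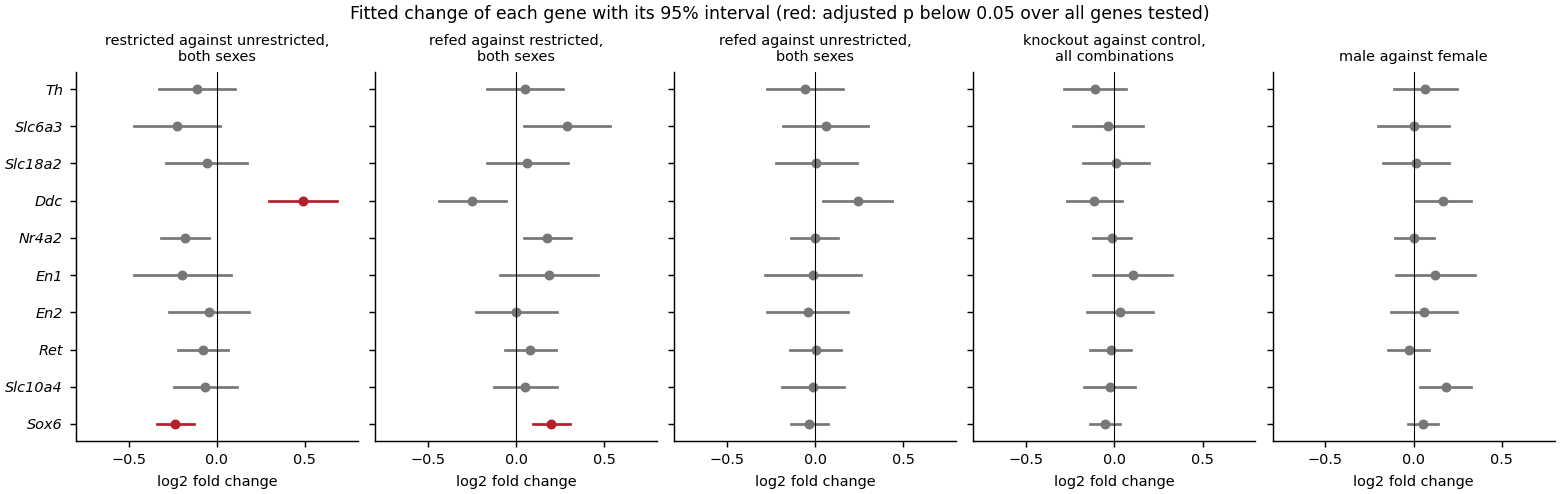
Fitted log2 fold change of each gene (point) with its 95% interval (line) in 5 comparisons over 48 libraries, with red for an adjusted p below 0.05 over all genes tested. Red appears for Ddc and Sox6 on restriction and for Sox6 on refeeding, and the intervals of all 10 genes in the genotype panel cross 0.

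Other genes of the dopamine system were taken from fixed lists. Of 14 further dopamine neuron genes 11 could be tested, and on restriction and on refeeding 0 of the 11 were called over both sexes, beside 15.2% of all genes in each contrast. In the genotype comparison 1 of the 11 was called, Aldh1a1. The dopamine autoreceptor gene Drd2, also used by striatal neurons, was at 30.8 ± 7.09 CPM unrestricted, 26.4 ± 5.67 restricted and 29.8 ± 7.39 refed, and the receptor Ntsr1 had a log2 fold change of -0.16 on restriction (edgeR's adjusted p = 0.205) and 0.18 on refeeding (adjusted p = 0.116). The remaining tested genes, Lmx1a, Lmx1b, Otx2, Gch1, Chrna6, Chrnb3, Gucy2c and Sncg, had adjusted p-values above 0.05 in these contrasts.

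Of 7 genes for the tetrahydrobiopterin cofactor and for dopamine breakdown, 1 fell on restriction and 2 rose on refeeding, beside the same 15.2% of all genes in each contrast. Qdpr, the reductase that regenerates the cofactor of tyrosine hydroxylase, was at 273 ± 21 CPM in unrestricted, 215 ± 39.3 in restricted and 271 ± 26.4 in refed mice (SD, n = 16). Its log2 fold change was -0.36 on restriction (SE 0.05, edgeR's adjusted p = 6.97e-08) and 0.35 on refeeding (SE 0.05, adjusted p = 1.77e-07). Maob, a monoamine oxidase of glia and serotonergic neurons, was at 20.4 ± 1.71 CPM restricted and 23.1 ± 2.43 refed, a log2 fold change of 0.18 (SE 0.05, edgeR's adjusted p = 0.00594). Gch1, Pts, Spr and Maoa were called in neither contrast.

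Whether the 10 genes moved together from mouse to mouse, as a common measure of the share of midbrain in each hemisphere would, was examined next. Covariation was measured as Pearson's r of log2 CPM over the 48 libraries with the 12 group means removed, and tested by 100000 permutations of libraries within groups with Benjamini-Hochberg adjustment over the 45 pairs. Of the 45 pairs 33 had a positive r, with a median of 0.225, and 14 were called, 10 positive and 4 negative. The smallest absolute r among those called was 0.31, and 22.4% of all pairs of the 17352 genes reached it, beside 18 of the 45 pairs of members. Leaving out 1 library at a time left between 3 and 16 pairs called, with fewer than 10 in 17 of the 48 cases, so most of the 14 calls lie close to the threshold. The pairs called every time were the 3 among Slc18a2, Ddc and En1.

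The tightest block was Slc18a2, Ddc and En1. Slc18a2 and Ddc had r = 0.714 (Spearman's rho 0.700, adjusted permutation p = 0.00015), Ddc and En1 r = 0.714 (rho 0.734, adjusted permutation p = 0.00015), and Slc18a2 and En1 r = 0.620 (rho 0.613, adjusted permutation p = 0.00015). Their unadjusted p of 1e-05 is the smallest the permutations can give. The values were 0.669, 0.620 and 0.537 in the 28 libraries numbered up to 28 and 0.634, 0.637 and 0.691 in the 20 numbered from 29, a split of the library names that also separates the refed mice, all 16 of which carry numbers up to 28. Without the 2 libraries farthest from the median of the first gene they were 0.712, 0.648 and 0.587. Ret had weaker correlations with the same genes, r = 0.445 with En1 (adjusted permutation p = 0.0453), 0.441 with Slc18a2 (adjusted p = 0.0411) and 0.310 with Ddc (adjusted p = 0.0468), called in 28, 39 and 24 of the 48 cases with 1 library left out.

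Th and Slc6a3, the enzyme and the transporter that most often define a dopamine neuron, showed no called correlation. Their r was 0.225 (rho 0.191, adjusted permutation p = 0.275), 0.358 in libraries numbered up to 28 and -0.03 in those numbered from 29. Among 17351 other genes, Slc6a3 ranked 2306th by its r with Th, and Th ranked 1867th by its r with Slc6a3. Slc6a3 was called with 1 member only, Slc10a4 (r = 0.359, rho 0.368, adjusted permutation p = 0.0499), and that call held in 11 of the 48 cases with 1 library left out. Th was called with Ret (r = 0.469), Slc18a2 (0.426) and Ddc (0.415) in the positive direction, and these calls held in 32, 16 and 24 of the 48 cases.

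Nr4a2 ran against the block. Its r was -0.456 with Slc18a2, -0.415 with Th, -0.410 with Ddc and -0.368 with En1, with adjusted permutation p-values of 0.0411, 0.0411, 0.0411 and 0.0417. All 4 kept their sign in both ranges of library numbers, and the calls held in 39, 39, 37 and 34 of the 48 cases with 1 library left out. With the olfactory bulb and serotonergic scores removed, a step chosen after the data had been seen, all 4 turned positive, at 0.116, 0.144, 0.0261 and 0.054. En2 and Sox6 were called with 0 of the other 9 genes, and the lowest r of En2 was -0.406 with Slc6a3 (adjusted permutation p = 0.131). Without male control refed replicate 1 that value was -0.195.

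**Figure D4:**
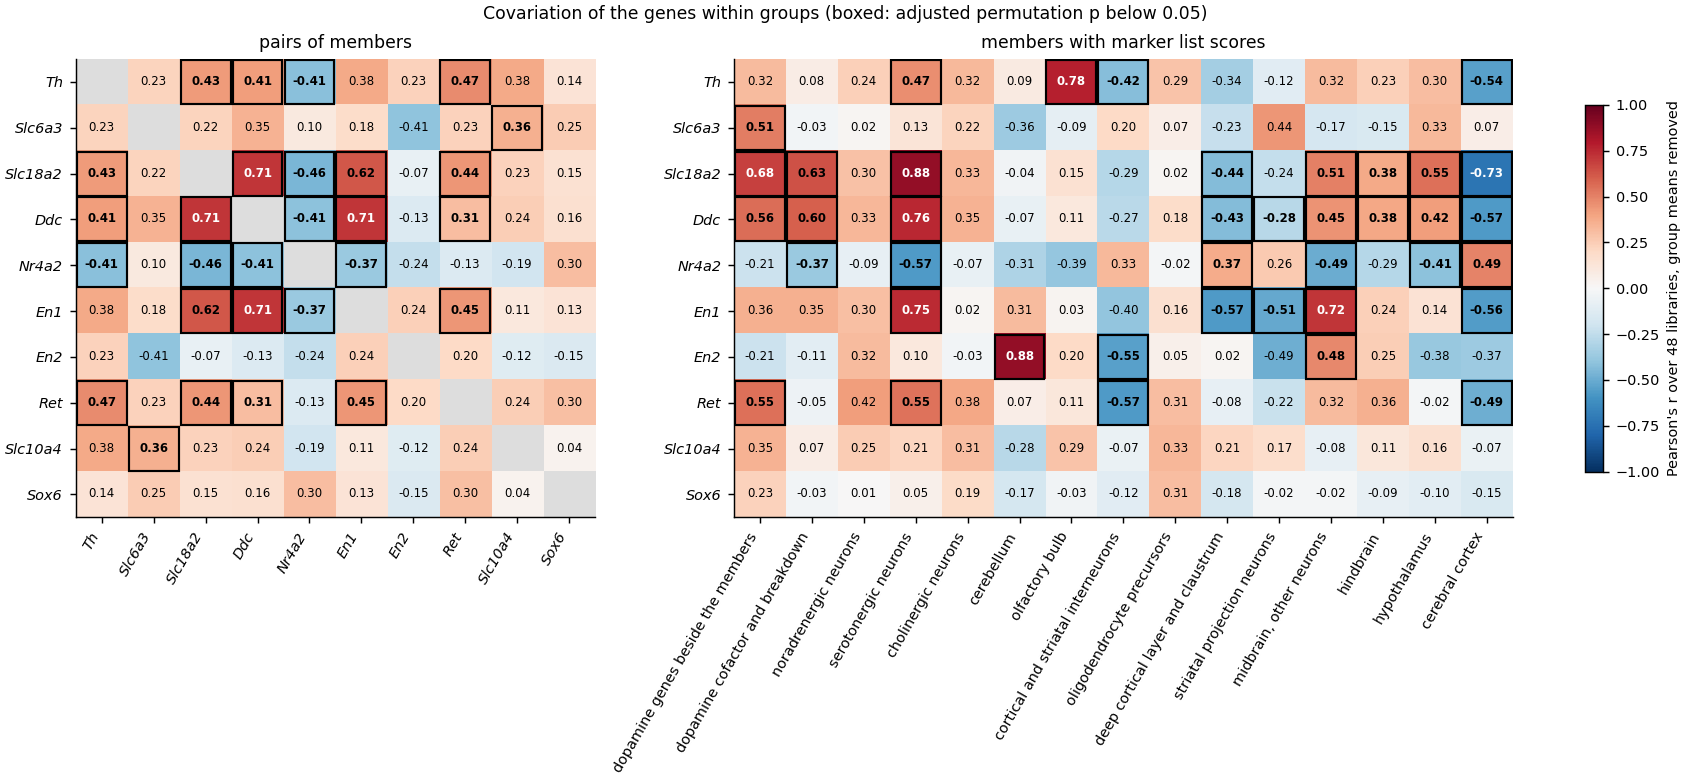
Pearson's r over 48 libraries with group means removed, between the 10 genes (left) and between each gene and the mean score of each of 15 marker lists (right), with red for positive and blue for negative and a box where the adjusted permutation p is below 0.05. Slc18a2, Ddc and En1 form a red block with the serotonergic list, En2 stands out with the cerebellum list at 0.88 and Th with the olfactory bulb list at 0.78.

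The 10 genes were compared with marker lists of other cells and regions, and 8 of the 10 were called with at least 1 list. The share of all genes called with at least 1 list was not computed, so this count has no background beside it. A list's score was the mean log2 CPM of its tested genes, each centred on its own mean, and 40 of the 150 relations of 10 genes and 15 lists were called, 23 positive and 17 negative. Of the 40, 30 were called with any 1 of the 48 libraries left out. The other 10 were Th with the serotonergic and interneuron lists, Slc18a2 with the hindbrain, Ddc with the striatal and hypothalamus lists, Nr4a2 with the cofactor, hypothalamus and cortex lists, En2 with the other midbrain neurons and Ret with the further dopamine genes. The smallest absolute r called was 0.281, and 26.6% of all relations of a gene with a list reached it, beside 77 of the 150 relations of members. Of the 40 called relations 39 kept their sign in both ranges of library numbers; the exception was En2 with the list of other midbrain neurons, at 0.704 and -0.225. That list holds Barhl2, Pax7, Pou4f1, Sox14, Tal1 and Tfap2b.

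Th followed the olfactory bulb list. Its r with that list (Eomes, Tbx21, Doc2g, Cdhr1 and Sp8) was 0.776 (rho 0.689, adjusted permutation p = 0.000167). It was 0.678 in libraries numbered up to 28 and 0.890 in those from 29. Among all genes outside the list, Th itself included, 0.0519% had an r of at least 0.776. Of the 10 members Th alone was called with this list; the difference between members was not tested. The 10 genes most like Th were Lgr5 (r = 0.743), Cdhr1 (0.742), Doc2g (0.718), Vipr2 (0.683), Tbx21 (0.682), Insyn2b (0.676), Ampd2 (0.676), Map3k1 (0.675), Frmd7 (0.675) and Ptpro (0.666). Cdhr1, Doc2g and Tbx21 are genes of the mitral and tufted cells of the bulb and were in the list. Th was also called with the serotonergic list (r = 0.468) and, negatively, with the cortex list (-0.541) and the list of cortical and striatal interneurons (-0.422). With 1 library left out these calls held in 42, 48 and 41 of the 48 cases.

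With the olfactory bulb score removed from both genes, the r of Th and Slc6a3 was 0.470 where it had been 0.225, and that of Th with the list of further dopamine genes was 0.434 where it had been 0.317. These values were chosen after the data had been seen and carry no test. The same step brought Th with En1 from 0.382 to 0.572 and Th with Ret from 0.469 to 0.607, whereas Th with Slc10a4 went from 0.379 to 0.258 and Th with En2 from 0.228 to 0.117.

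Slc18a2, Ddc and En1 followed the list of serotonergic neurons, cells of the raphe, next to the midbrain, that also use Ddc and Slc18a2. The serotonergic list (Tph2, Slc6a4, Gata2 and Gata3 as tested, with Fev too low) had r = 0.877 with Slc18a2 (rho 0.840), 0.755 with Ddc (rho 0.725) and 0.748 with En1 (rho 0.759), each with an adjusted permutation p of 0.000167. In the ranges of library numbers the values were 0.756 and 0.917 for Slc18a2, 0.783 and 0.652 for Ddc, and 0.873 and 0.644 for En1. No other gene outside the serotonergic list had an r as high as that of Slc18a2. Among genes that are no members, the one most like each of the 3 was Tph2, the serotonin synthesis enzyme, with r = 0.904 for Slc18a2, 0.766 for Ddc and 0.712 for En1, followed each time by the serotonin transporter Slc6a4 (0.859, 0.749 and 0.666); these were read off after the values were seen. The next non-member was Slc17a6 for Slc18a2 and Ddc (0.795 and 0.719), which ranked 10 for En1 (0.607) and is in none of the lists. With members included, the gene most like En1 was Ddc, at r = 0.714. Tph2 itself ranged widely, at 7.16 ± 4.08 CPM over 48 libraries (SD). With the list of other midbrain neurons, Slc18a2, Ddc and En1 had r = 0.505, 0.449 and 0.716, all called. Slc18a2 and Ddc were also called with the cofactor and breakdown list (0.633 and 0.599), the hypothalamus list (0.554 and 0.417) and the hindbrain list (0.375 and 0.383). En1 was called with none of these. The share of their RNA that came from raphe cells was not tested.

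With the serotonergic score removed, the r of Slc18a2 and Ddc was 0.166, that of Slc18a2 and En1 -0.11 and that of Ddc and En1 0.344, all 3 below their values before removal. Over the 45 pairs, 9 then had an absolute r of at least 0.31, beside 18 before. This too was chosen after the data had been seen and is given with no test.

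Slc6a3 followed the further dopamine genes. Its r with the 11 further dopamine genes was 0.513 (rho 0.488, adjusted permutation p = 0.0062), 0.769 in libraries numbered up to 28 and 0.443 in those from 29, and this was its only called relation among 15 lists. Within that list it was highest with Ntsr1 (r = 0.579, rank 6 among 17351 genes), the nicotinic receptor subunit Chrna6 (0.521, rank 20) and Drd2 (0.511, rank 29), followed by Chrnb3 (0.360), Gucy2c (0.331) and Lmx1a (0.187). It was near 0 with Aldh1a1 (0.042), Lmx1b (0.030) and Sncg (-0.017) and negative with Gch1 (-0.109) and Otx2 (-0.359, rank 17005), so the list did not move as one with Slc6a3. Its r with the list of striatal projection neurons was 0.44 and with the cerebellum list -0.36, and neither was called. Both values rested on male control refed replicate 1, without which they were 0.140 and -0.169. The 10 genes most like Slc6a3 were Samd5 (r = 0.701), Tcf7l2 (0.677), Scube3 (0.604), F630040K05Rik (0.601), Lef1 (0.580), Ntsr1 (0.579), Gm48796 (0.572), Rhoh (0.566), Plekhg1 (0.554) and Pcdh11x (0.551). Tcf7l2 and Lef1 are transcription factors of the Wnt pathway that thalamic neurons keep into adulthood.

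Slc18a2, Ddc and Ret were also called with the list of further dopamine genes, at r = 0.682, 0.559 and 0.551 (adjusted permutation p = 0.000167, 0.000545 and 0.0148). These were above the 0.513 of Slc6a3. Among all genes outside the list, 0.0115%, 0.167% and 0.196% had an r at least as high, beside 0.433% for Slc6a3. With the olfactory and serotonergic scores both removed, the r of Slc18a2, Ddc and Ret with the list was 0.378, 0.183 and 0.330, beside 0.553 for Slc6a3. Th had r = 0.317 with the list (adjusted permutation p = 0.133) and Nr4a2 had -0.21.

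En2 followed the cerebellum list. Its r with that list (Cbln1, Cbln3, Gabra6, Pcp2, Car8, Zic1 and Barhl1) was 0.875 (rho 0.817, adjusted permutation p = 0.000167). It was 0.934 in libraries numbered up to 28 and 0.614 in those from 29. Among all genes outside the list, En2 itself included, 0.0577% had an r of at least 0.875. With any 1 library left out, the r of En2 with the list was at least 0.831. The genes most like En2, chosen after their values were seen, included Kank2 (r = 0.93), Cbln3 (0.922), Chn2 (0.909), Fat2 (0.909), Cbln1 (0.908), Zic2 (0.901) and Zic1 (0.895). Cbln3, Cbln1 and Zic1 were in the list themselves. En1, its close relative, had r = 0.31 with the cerebellum list, which was not called, and 0.716 with the list of other midbrain neurons (adjusted permutation p = 0.000167).

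Nr4a2 was called with the cortex lists. Its r was 0.494 with the cerebral cortex list (rho 0.422, adjusted permutation p = 0.0175) and 0.369 with the list of deep cortical layer and claustrum (adjusted permutation p = 0.0162), and 6.12% and 9.15% of all genes outside these lists had an r as high. It was -0.570 with the serotonergic list and -0.494 with the other midbrain neurons. Without male control refed replicate 1 it was also called with the striatal projection neurons, at 0.579 in place of 0.262, and with the cerebellum list, at -0.442 in place of -0.311. By contrast Slc18a2 had -0.730 with the cortex list, Ddc -0.569, En1 -0.556, Th -0.541 and Ret -0.491. Slc10a4 and Sox6 were called with 0 of 15 lists. The lists of noradrenergic neurons, cholinergic neurons and oligodendrocyte precursors were called with 0 of 10 members. The list of hindbrain genes was called with 2 members and that of the hypothalamus with 3.

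**Figure D5:**
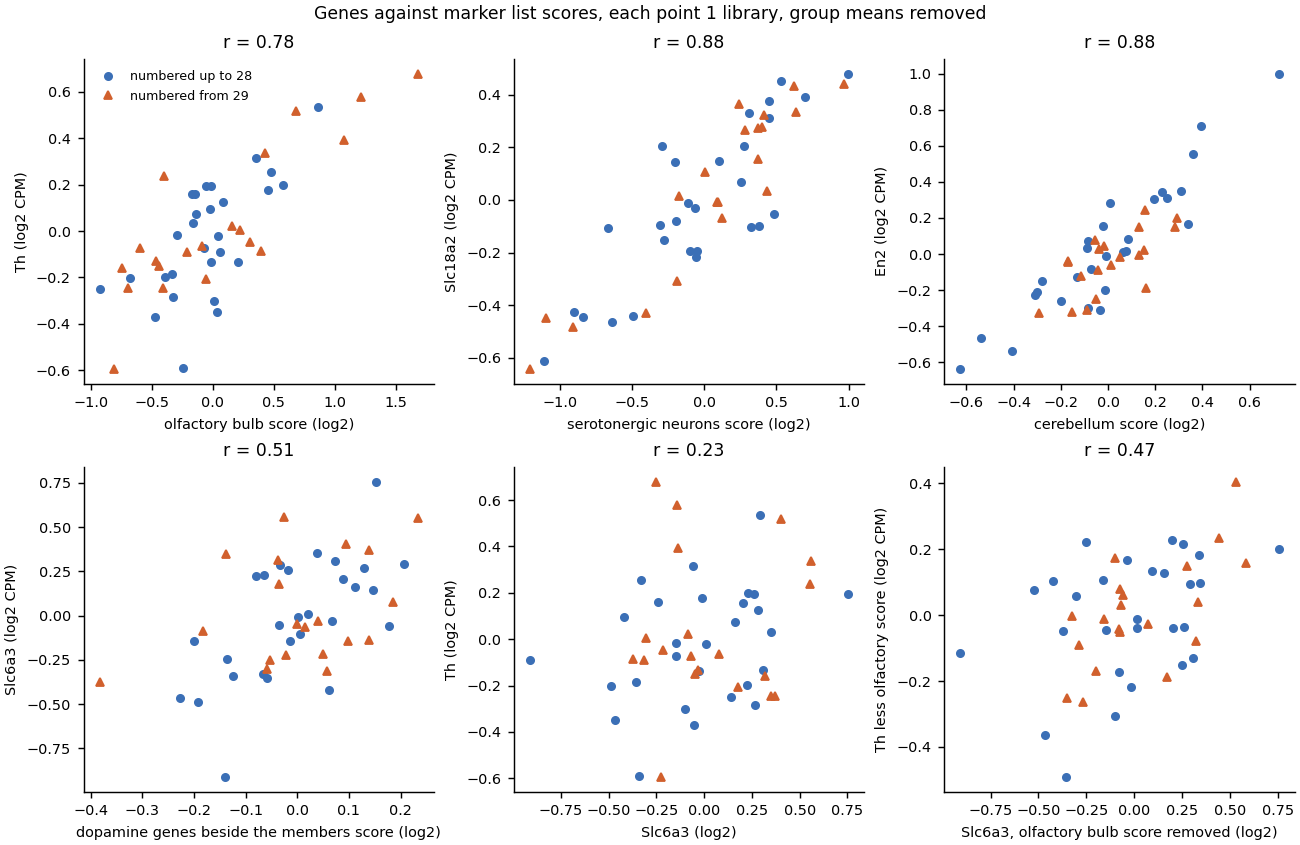
Genes against marker list scores or against each other, each point 1 of 48 libraries with group means removed (log2 scales), with circles for libraries numbered up to 28 and triangles for those from 29. Th rises with the olfactory bulb score, Slc18a2 with the serotonergic score and En2 with the cerebellum score, and the last panels show Th against Slc6a3 before (0.23) and after (0.47) removal of the olfactory bulb score.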

How the data were processed

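Poly-A RNA from 1 hemisphere of each of 48 mice was sequenced, 1 library per mouse. Per the submitters' processing notes, fastp, STAR and Salmon were used with the mm39 build, with no version stated. The authors deposited 1 table of expected counts (estimated counts, which need not be whole) per gene symbol, unscaled. Each column carries a library name that the labels tie to 1 mouse, and the same labels gave that mouse's sex, genotype and feeding state. No column belonged to any other sample. Replicates were numbered in accession order and pair nothing. The 10 genes and all lists were chosen with earlier results of these data known.

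Counts were rounded, with totals shifting by at most 51.1 counts. Low genes were removed with filterByExpr (minimum count 10, minimum total 15), which left 17352 genes. A quasi-likelihood model of edgeR 4.0.16 in R 4.3.3 was fitted to all 48 libraries with TMM scaling and 1 coefficient per group, and 23 contrasts were tested with Benjamini-Hochberg adjustment over all genes and a threshold of 0.05. The strand setting of the counting is not given in the sources used here. No label says that mice of a group came from separate litters or days, so p-values measure the spread between these mice. Standard errors were computed as the absolute log2 fold change over the square root of F, and 95% intervals from them by a normal approximation, which makes them slightly narrow.

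Correlations used log2 CPM (prior count 2) after the 12 group means were removed, with 2-sided permutation p-values (Python 3.11.15) adjusted over 45 pairs or 150 relations of members and lists. Of the 15 lists, 2 hold dopamine genes and 13 hold markers of other cells or regions. One gene of these lists is not reported here. Named were the 10 members, Grin1, Aldh1a1, the genes of the dopamine lists, marker genes called in the main contrasts, and the 10 genes most like Th and most like Slc6a3; other names were chosen after their values were seen. Both scripts for tests over many genes were tested on simulated data. Alternatives were DESeq2 1.42.0, limma 3.58.1 with voom and sample weights, RLE size factors, no filter, a robust estimate of spread, age or library number (up to 28 against from 29) as covariates, only the groups compared, each library left out, a prior count of 0.5, Spearman's rho and group means kept. Alternatives added after seeing the data were the score of the serotonergic, olfactory bulb, cerebellum or cortex list as a covariate, and removal of the first 2 scores before correlation. Total counts of 7574827 to 16185373 gave the rarest member, En1, 16 to 62 counts.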

Additional observations from a re-analysis of the deposited data

Results flagged for a closer look

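In groups of 4 mice, a library was flagged when its gap to the nearest of the other 3, divided by the range of its group on the log2 scale, passed the 95% limit of Dixon's test. Of 120 groups (10 genes in 12 groups) 9 were flagged, where about 1 in 20, or 6, would be by chance. Male knockout refed replicate 2 was highest for both En2 (34.8 CPM against 17.2 to 18.4 in the other 3, gap ratio 0.901) and Th (17.2 against 10.2 to 10.7, gap ratio 0.909), and it was the only library flagged for more than 1 gene. Ret was lowest in male control refed replicate 2 (17.8 CPM against 28.3 to 28.4, gap ratio 0.992) and in female control restricted replicate 4 (15.1 against 26.8 to 28.6, gap ratio 0.899). En2 was lowest in male control unrestricted replicate 4 (19.1 against 22.46 to 22.99, gap ratio 0.873). Nr4a2 was highest in female knockout unrestricted replicate 2 (43.1 against 34.9 to 36.2, gap ratio 0.833) and in male knockout unrestricted replicate 3 (46.2 against 32.46 to 34.03, gap ratio 0.866). Slc6a3 was highest in male knockout restricted replicate 4 (11.6 against 8.17 to 8.63, gap ratio 0.843), and Sox6 was lowest in female control unrestricted replicate 3 (17.4 against 19.9 to 20.3, gap ratio 0.883).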

How the results depend on the processing

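The count of called members was 0 in every genotype, sex, interaction and refed against unrestricted comparison under every setting run. Restricted against unrestricted over both sexes gave 2 members, or 3 where Nr4a2 was added. Refed against restricted over both sexes gave 2 members with limma voom (Slc6a3 added), with no filter (Ddc added) and with the olfactory bulb score (Th added). It gave 2 without male control refed replicate 1 (Slc6a3 added) and 3 with the serotonergic score (Ddc and Nr4a2 added). The range was 1 to 3 over the libraries left out. In females that contrast gave 2 with only the groups compared and 2 with the serotonergic score, with a range of 0 to 1 over the libraries left out. In males it gave 1 with limma voom and 1 without male control refed replicate 1, with a range of 0 to 1. Restricted against unrestricted females ranged from 1 to 2 and males from 0 to 1 over the libraries left out, and males gave 0 with only the groups compared, where Ddc was lost. The males' call of Ddc was lost without male control restricted replicate 3, male knockout restricted replicate 3 or male knockout unrestricted replicate 3. The females' call of Ddc was lost without control restricted replicate 2, control unrestricted replicates 1, 2 or 3, knockout restricted replicate 1, or knockout unrestricted replicates 2 or 4. The cause of these shifts was not tested.

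Called pairs of members numbered 0 in libraries numbered up to 28 and 0 in those from 29, with fewer libraries in each; they numbered 12 to 13 under the other settings, 9 without male control refed replicate 1, and 3 to 16 over the libraries left out. The libraries whose removal brought the count to 3 were female control restricted replicate 3, female control unrestricted replicates 1 and 4, female knockout refed replicate 3, female knockout restricted replicate 3, male control restricted replicate 2 and male knockout restricted replicate 4. It was 4 without male knockout refed replicate 1 or male knockout unrestricted replicate 3, 6 without female knockout unrestricted replicate 2, 7 without female control restricted replicate 4, male control unrestricted replicate 1 or male knockout unrestricted replicate 1, 8 without female knockout restricted replicate 2 or male control refed replicate 3, and 9 without female control refed replicate 2. Called relations with lists numbered 15 and 7 in the ranges of library numbers, and 33 to 45 over the libraries left out. With the olfactory bulb and serotonergic scores removed, r changed sign for Th with Nr4a2 (0.144), Slc18a2 with Nr4a2 (0.116), Slc18a2 with En1 (-0.116), Slc18a2 with Ret (-0.0921), Ddc with Nr4a2 (0.0261), Ddc with Ret (-0.183) and Nr4a2 with En1 (0.054). En2 with the other midbrain neurons was -0.225 in libraries numbered from 29. No paired analysis was possible because replicate numbers were given in accession order and tie no mice of different groups. Depth limits the rare genes: Pitx3, Foxa1, Foxa2 and Fev were not tested.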

Other observations

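Marker genes of other cells and regions also changed with feeding state, where 15.2% of all genes tested were called in each of the restriction and refeeding contrasts. Agrp, the hunger peptide of the arcuate hypothalamus, averaged 0.346 ± 0.1601 CPM in unrestricted, 0.957 ± 0.808 in restricted and 0.337 ± 0.291 in refed mice (SD, n = 16 each). Its log2 fold change was 1.37 on restriction (SE 0.41, edgeR's adjusted p = 0.0178) and -1.44 on refeeding (SE 0.42, adjusted p = 0.0140), from at most 30 counts in a library. It was 1 of 6 hypothalamic genes called in each contrast. Eomes, a transcription factor of the olfactory bulb list that Th followed, averaged 4.24 ± 1.74, 6.44 ± 2.68 and 3.21 ± 1.49 CPM in the same order. It rose by 0.58 on restriction (log2, SE 0.20, edgeR's adjusted p = 0.0457) and its change on refeeding was -0.96 (SE 0.21, adjusted p = 0.00102), while the other 4 bulb genes were not called. Slc6a2, the noradrenaline transporter, was 1 of 3 noradrenergic genes called on refeeding (log2 fold change 0.50, SE 0.13, edgeR's adjusted p = 0.00718).

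In the deep cortical layer and claustrum list, 3 of 5 genes changed on restriction, with Ccn2 higher by 0.34 (log2, SE 0.06, edgeR's adjusted p = 1.88e-05) and Gnb4 and Ntng2 at -0.17 and -0.21. All 3 moved the other way on refeeding, at -0.27, 0.16 and 0.23. Adora2a, a receptor of striatal projection neurons, had a log2 fold change of -0.39 on restriction (edgeR's adjusted p = 0.0179), and the peptide gene Tac1 had -0.29 on refeeding (adjusted p = 0.0400). Of the oligodendrocyte precursor genes, Pdgfra and Neu4 were higher on restriction by 0.17 and 0.22, and on refeeding Pdgfra was at -0.14 and C1ql1 at 0.36. The restriction and refeeding contrasts share the restricted libraries.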
